A study of Mus musculus with 9 samples.

Results

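The genes of autotaxin and lysophosphatidic acid (LPA) signalling were followed in cultured VICs (valvular interstitial cells), which are the resident fibroblasts of heart valve leaflets. They were 9 genes chosen by name, Pla2g7, Enpp2, Lpar1, Lpar2, Lpar3, Lpar4, Lpar6, Plpp1 and Plpp3, and all 9 were found among the 51810 genes of the deposited table. Both the aortic and the mitral valve of C57BL/6J mice, an inbred strain, were the source of the VICs, and the labels name no engineered allele. One group of 3 samples received oxidised low-density lipoprotein (oxLDL) at 50 ug/mL for 24 h, another group of 3 received the native lipoprotein (LDL) at the same dose and time, and 3 Control samples, labelled untreated, received buffer. Every group grew in DMEM with 10% serum, insulin (5 ug/mL), EGF (2 ng/mL) and basic FGF (0.5 ng/mL), so serum, a source of LPA and of autotaxin, was part of the growth medium in all of them. Whether a group's 3 samples were separate animals or cultures is not stated, so each p-value speaks for the spread among these samples alone, and that spread may be technical. Values are TPM, a relative abundance that corrects for gene length, so levels of different genes can be compared with length accounted for.

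LPA is a lysophospholipid that acts outside the cell. Autotaxin, the secreted enzyme encoded by Enpp2, cuts lysophosphatidylcholine to LPA, and lysophosphatidylcholine is abundant in oxidised lipoprotein, where Pla2g7 (lipoprotein-associated phospholipase A2) releases it from oxidised phospholipids. LPA binds G protein-coupled receptors of an EDG type (Lpar1, Lpar2, Lpar3) and of a P2Y type (Lpar4, Lpar6), and the membrane phosphatases Plpp1 and Plpp3 end the signal by removing its phosphate. In aortic valve disease, autotaxin and LPA are known for their association with mineralisation of the leaflet.

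Promoter windows, 250 bases before to 50 after a transcription start, were available from RefSeq (GRCm38.p6) for 7 of the 9 genes (all but Enpp2 and Plpp1), in 9 windows, 3 of them of Lpar1. Below are windows of 4 of these genes. Pla2g7 was the most variable gene of the set, and Lpar1 the most abundant receptor (its second window is shown). Lpar3 was the least abundant receptor, and Lpar6 the most abundant receptor of the P2Y type. Capitals mark each match, on either strand, to a GC box (GGGCGG, a motif of Sp1) or to the core of the antioxidant response element (TGACNNNGC, a motif of NRF2).
Pla2g7, chr17:43568201-43568500 (+ strand): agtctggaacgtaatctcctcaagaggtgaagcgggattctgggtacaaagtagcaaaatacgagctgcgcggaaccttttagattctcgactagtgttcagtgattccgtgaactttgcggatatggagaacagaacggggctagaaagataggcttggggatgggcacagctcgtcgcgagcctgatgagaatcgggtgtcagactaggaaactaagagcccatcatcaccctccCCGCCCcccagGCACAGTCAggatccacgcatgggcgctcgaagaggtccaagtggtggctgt
Lpar1, chr4:58553244-58553543 (- strand): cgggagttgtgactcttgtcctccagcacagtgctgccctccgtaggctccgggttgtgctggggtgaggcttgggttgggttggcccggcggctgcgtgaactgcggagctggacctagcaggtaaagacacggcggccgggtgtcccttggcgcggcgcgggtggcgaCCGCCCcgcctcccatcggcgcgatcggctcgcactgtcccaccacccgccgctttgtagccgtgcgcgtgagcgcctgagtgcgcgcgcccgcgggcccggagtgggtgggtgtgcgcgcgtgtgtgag
Lpar3, chr3:146220711-146221010 (+ strand): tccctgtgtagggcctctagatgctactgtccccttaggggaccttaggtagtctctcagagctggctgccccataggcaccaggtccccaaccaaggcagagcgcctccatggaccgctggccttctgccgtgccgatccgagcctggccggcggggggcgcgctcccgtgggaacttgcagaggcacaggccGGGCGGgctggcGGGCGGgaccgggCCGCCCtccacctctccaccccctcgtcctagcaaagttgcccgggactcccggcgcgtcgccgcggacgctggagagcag
Lpar6, chr14:73237641-73237940 (+ strand): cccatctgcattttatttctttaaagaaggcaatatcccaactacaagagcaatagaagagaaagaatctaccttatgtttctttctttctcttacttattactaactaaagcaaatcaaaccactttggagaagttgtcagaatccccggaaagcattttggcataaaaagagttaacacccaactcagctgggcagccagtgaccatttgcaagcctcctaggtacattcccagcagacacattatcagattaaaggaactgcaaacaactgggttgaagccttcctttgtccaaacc
The Lpar1 window shown held 37 CpG dinucleotides, the other two windows of Lpar1 14 and 3, and the Lpar3 window 25, against 17 in that of Pla2g7, 1 in that of Lpar6 and a median of 7 over the 32841 promoter windows of 300 bases. The GC box was in 7 of the 9 windows of these genes and in 35.7% of all windows. The first and second windows of Lpar1, both among the 7, overlap in part, though each held its own match. The antioxidant core was in 2 of the 9, those of Pla2g7 and Lpar2, and in 12.4% of all windows. The Pla2g7 match began at base 249 of its window, over the RefSeq start, and the Lpar2 match at base 30. The PPAR element, AGGTCA repeated with a base between, was in 0 of the 9 and in 0.0396% of all, and the TATA box TATAAA in 1 (Lpar4) and in 13.6%. A match, or none, describes only these letters in this window.

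The phosphatases were by far the most abundant of the 9 transcripts and Lpar3 the least. Over all 9 libraries Plpp1 averaged 159.7 ± 7.57 TPM (SD, n = 9) and Plpp3 150.5 ± 22 TPM (SD, n = 9), placing them above 92.6 and 92% of the 13495 genes tested. Lpar1 followed with 41.8 ± 6.84 TPM (SD, n = 9), above 71.4% of tested genes. Enpp2 averaged 15.3 ± 4.09 TPM and Pla2g7 9.17 ± 5.04 TPM (SD, n = 9 each). The other receptors were lower, Lpar6 at 7.17 ± 0.682 TPM, Lpar2 at 4.26 ± 0.595 TPM, Lpar4 at 1.97 ± 0.362 TPM and Lpar3 at 0.331 ± 0.159 TPM (SD, n = 9 each).

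This order had gaps in 5 places. The lowest Plpp3 value (119.7 TPM) was above the highest Lpar1 value (52 TPM), and the lowest Lpar1 value (32 TPM) was above the highest Enpp2 value (23.3 TPM). Lpar6, Lpar2, Lpar4 and Lpar3 were likewise separated from each other in that order in all 9 libraries. Plpp1 and Plpp3 overlapped, with Plpp1 the higher in 6 of 9 libraries. Pla2g7 overlapped with Enpp2 over the whole set, although Enpp2 was the higher gene in each of the 9 libraries, and it overlapped with Lpar6, being the higher in 5 of 9.

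**Figure D1:**
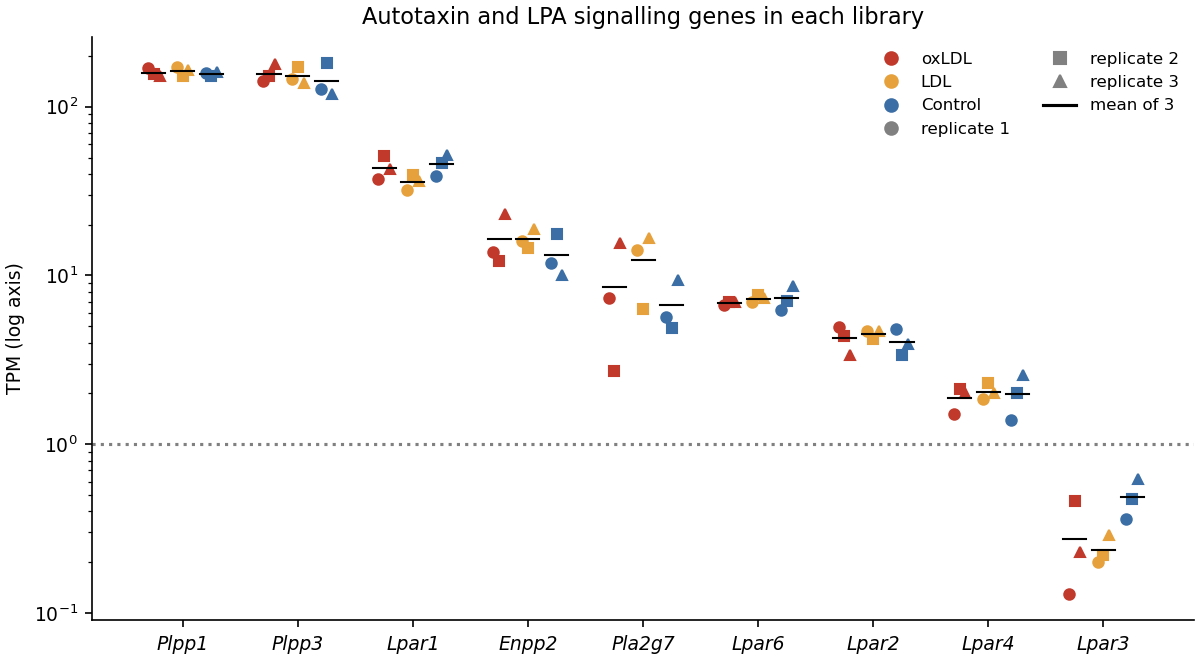
TPM (log axis) of the 9 genes in each library, with oxLDL, LDL and Control from left to right for each gene, symbols for replicate numbers and bars for means of 3; the dotted line is the mean of 1 TPM below which a gene was not tested. The phosphatases lie near 150 TPM and Lpar3 lies under 1 TPM in every library.

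With limma over all genes, 0 of the 8 tested members passed an adjusted p under 0.05 in any of the 3 comparisons. Lpar3, with a mean under 1 TPM, was not tested. Of all 13495 genes tested, 0.333% were called between LDL and Control, 0.0148% between oxLDL and Control and 0.104% between oxLDL and LDL. At an unadjusted p under 0.05 in limma there was 1 member between LDL and Control (Lpar1), 0 between oxLDL and Control and 0 between oxLDL and LDL, where 6.65, 3.86 and 3.91% of all genes lay. With the replicate number as a block, limma called 0 members in each comparison, while 0.852, 0.126 and 0.259% of all genes passed. The block put 2, 0 and 2 members at an unadjusted p under 0.05 (Lpar1 and Pla2g7 both times), and 13.1, 9.08 and 8.51% of all genes. All 3 libraries of one group lay beyond all 3 of the other for 0 of the 8 tested members in each comparison, against 10.7, 7.33 and 8.31% of all genes in the same order. The comparisons share their libraries, so their values are not independent of each other.

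Libraries with the same replicate number resembled each other, and the culture held markers of other cells. All 12 markers of valve interstitial cells and fibroblasts had a mean of at least 1 TPM, and their sum ran from 19536 to 23723 TPM. Of 15 macrophage and leukocyte markers 14 had a mean of at least 1 TPM, with sums of 113.3 to 827.4 TPM with oxLDL, 257.6 to 817.3 TPM with LDL and 252.9 to 523.4 TPM in Control, and 0 markers at 0 in all libraries. Endothelial markers summed to 207.7 to 468.3, 216 to 486.7 and 216.8 to 465.4 TPM in the same groups, with all 10 at or above that mean. Melanocyte markers summed to no more than 28.1 TPM in any library, and those of smooth muscle to 65.4 to 92.4 TPM with the highest sums in Control. Adipocyte markers summed to 11.3 to 33.2 TPM and cardiomyocyte markers to 9.91 to 64 TPM. Of 8 melanocyte markers 5 had a mean of at least 1 TPM, as did 3 of 6 of smooth muscle. Most of the smooth muscle sum was Smtn, at 69.7 TPM over all libraries. Of 5 adipocyte markers only Fabp4 reached that mean (21.4 TPM), and of 5 cardiomyocyte markers only Tnnt2 (24.3 TPM). In bulk RNA, fewer cells of a type and less RNA per cell cannot be told apart.

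Pla2g7 hydrolyses oxidised phospholipids and platelet-activating factor, and is a known product of macrophages. It had the highest mean with LDL, and within the oxLDL and LDL groups the libraries lay further apart than the group means. The gene lies on chromosome 17 from 43568098 to 43612201 in GRCm38, and 319 of its 2905 exon bases are shared with exons of 1700071M16Rik on the other strand, which had at most 0.26 TPM. Its levels were 7.38, 2.73 and 15.5 TPM in the oxLDL libraries, 14.1, 6.3 and 16.6 TPM in the LDL libraries, and 5.68, 4.86 and 9.4 TPM in the Control libraries, each in the order of replicate numbers 1, 2 and 3. Replicate 2 was the lowest and replicate 3 the highest in each group, and all 3 groups overlapped.

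Within each replicate number Pla2g7 was higher with LDL than in Control, by 2.48, 1.3 and 1.77 times. The means were 12.3 ± 5.38 TPM with LDL and 6.65 ± 2.42 TPM in Control (SD, n = 3 each), a log2 difference of 0.75 (95% CI -0.44 to 1.94, limma adjusted p = 0.956). OxLDL gave 8.54 ± 6.47 TPM (SD, n = 3), a log2 difference of 0.11 from Control (95% CI -1.07 to 1.3, limma adjusted p = 1). In that comparison 2 of the 3 replicate numbers were higher with oxLDL and 1 was lower, and the difference was -0.41 without oxLDL replicate 3 and -0.06 without Control replicate 2. OxLDL against LDL gave a log2 difference of -0.64 (95% CI -1.82 to 0.55, limma adjusted p = 1), lower in 3 of 3 replicate numbers. That value was -0.084 without oxLDL replicate 2 and -1.16 without oxLDL replicate 3, and the LDL difference from Control ran from 0.50 without LDL replicate 3 to 1.14 without LDL replicate 2.

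The summed macrophage and leukocyte markers moved with Pla2g7 across the libraries. Their sum was 579.4, 113.3 and 827.4 TPM in the oxLDL libraries, 817.3, 257.6 and 646.2 TPM in the LDL libraries, and 523.4, 252.9 and 496.9 TPM in the Control libraries, in the same order. The correlation with log2 Pla2g7 was r = 0.886 over the 9 libraries and 0.916 after the group means were removed, as a description over points that share libraries, replicate numbers and group. The sum of melanocyte markers had r = 0.725 with it over the 9 libraries. Lyz2 alone averaged 338.2 TPM of the macrophage and leukocyte sum. Cd14, of the same list, was highest in replicate 2 with LDL (9.11 TPM) and in Control (9.17 TPM), where Pla2g7 was lowest. Of the 14 tested markers of this list, 14 had a higher mean with LDL than in Control, on the TPM and on the log2 scale, with 0 called by limma and 0 at an unadjusted p under 0.05 (median log2 difference 0.31, against 0 for all genes to 2 decimals). With oxLDL, 14 of 14 had a lower log2 mean than with LDL (median -0.29), and 12 of 14 a lower mean TPM. The direction between oxLDL and Control depended on the scale, since 8 markers had a higher log2 mean and 6 a lower one, while 13 had a higher mean TPM and 1 a lower one. The part of these cells in the Pla2g7 values was not tested.

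Set against Ptprc, the pan-leukocyte surface phosphatase CD45, Pla2g7 varied less. Ptprc was among the 3 genes most like Pla2g7 over these same libraries (r = 0.97), so a steadier ratio follows from that likeness. Its level was low, from 0.5 to 3.51 TPM. The ratio of Pla2g7 to Ptprc TPM was 4.39, 5.46 and 4.42 in the oxLDL libraries, 5.61, 5.89 and 6.04 in the LDL libraries, and 3.97, 4.67 and 4.56 in the Control libraries. The 3 LDL libraries were thus the 3 highest, and the lowest of them was close to the highest oxLDL library. As a percentage of the marker sum, Pla2g7 was 1.85 ± 0.568% with oxLDL, 2.25 ± 0.459% with LDL and 1.63 ± 0.475% in Control (SD, n = 3 each), and these groups overlapped. Both ratios were formed after the values were seen and were given no test.

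**Figure D2:**
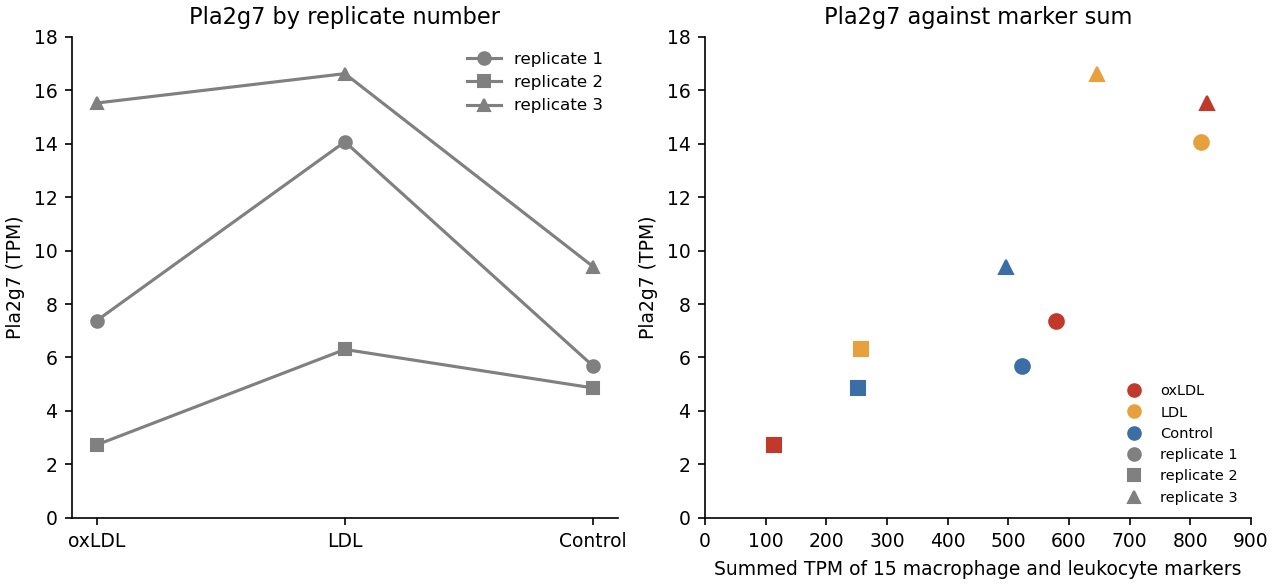
Left, Pla2g7 TPM in the oxLDL, LDL and Control libraries with lines joining libraries of the same replicate number. Right, Pla2g7 TPM against the summed TPM of 15 macrophage and leukocyte markers, 1 point for each library; the library with the lowest sum, oxLDL 2 at 113.3 TPM, also had the lowest Pla2g7, 2.73 TPM.

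Enpp2, which encodes autotaxin, had higher means with either lipoprotein than in Control, by amounts within the spread of the libraries. It lies on chromosome 15 from 54838901 to 54952892. Levels were 13.7, 12.1 and 23.3 TPM in the oxLDL libraries, 16, 14.6 and 18.9 TPM in the LDL libraries, and 11.8, 17.5 and 10.1 TPM in the Control libraries. The highest value belonged to oxLDL replicate 3 and the lowest to Control replicate 3, and Control replicate 2 stood above 4 of the 6 lipoprotein libraries, so the groups overlapped.

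For Enpp2 the mean was 16.4 ± 6.02 TPM with oxLDL, 16.5 ± 2.17 TPM with LDL and 13.1 ± 3.89 TPM in Control (SD, n = 3 each). The log2 difference from Control was 0.28 with oxLDL (95% CI -0.29 to 0.85, limma adjusted p = 1) and 0.33 with LDL (95% CI -0.24 to 0.90, limma adjusted p = 0.979). With oxLDL it was 0.011 without oxLDL replicate 3 and 0.49 without Control replicate 2, and with LDL it was 0.18 without Control replicate 3 and 0.55 without Control replicate 2. Replicate numbers 1 and 3 were higher with either lipoprotein and number 2 was lower with either. OxLDL against LDL gave -0.06 (95% CI -0.63 to 0.52, limma adjusted p = 1). As a ratio of (TPM + 1), oxLDL over Control, the interval ran from 0.817 to 1.8. Of the 5779 exon bases of Enpp2, 345 are shared with exons of Gm26684, which had at most 0.05 TPM.

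Lpar1 is the receptor through which LPA is best known to act on fibroblasts, via Gi, Gq and G12/13 proteins. It had the lowest mean with LDL, and the interval of that difference from Control did not include 0, but the adjusted p did not pass. Its gene lies on chromosome 4 from 58435255 to 58553898. Levels were 37.1, 50.8 and 42.8 TPM in the oxLDL libraries, 32, 39.2 and 36.5 TPM in the LDL libraries, and 38.7, 46.7 and 52 TPM in the Control libraries. LDL was lower than Control in each of the 3 replicate numbers and lower than oxLDL in each, although the ranges overlapped by 1 library on either side. Marker sums of other cells went along with Lpar1 too. Over the 9 libraries log2 Lpar1 had r = -0.825 with the melanocyte sum, -0.786 with the adipocyte sum and 0.70 with the smooth muscle sum. The part of such cells in the Lpar1 values was not tested.

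The Lpar1 means were 43.6 ± 6.9 TPM with oxLDL, 35.9 ± 3.66 TPM with LDL and 45.8 ± 6.73 TPM in Control (SD, n = 3 each). LDL against Control gave a log2 difference of -0.34 (95% CI -0.66 to -0.02, limma adjusted p = 0.694), with ratios of 0.827, 0.84 and 0.701 in replicate numbers 1, 2 and 3. OxLDL against LDL gave 0.27 (95% CI -0.05 to 0.59, limma adjusted p = 1) and oxLDL against Control -0.07 (95% CI -0.39 to 0.25, limma adjusted p = 1). With 1 library left out, the LDL difference from Control ran from -0.45 without Control replicate 1 to -0.24 without Control replicate 3. The unadjusted limma p was 0.0127 in the former fit and 0.146 in the latter, so the interval included 0 in the latter. Between oxLDL and LDL the value was 0.15 without oxLDL replicate 2.

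Lpar2, a receptor of the same EDG type, lies on chromosome 8 from 69822429 to 69831102. It had 4.97, 4.35 and 3.37 TPM in the oxLDL libraries, 4.69, 4.22 and 4.66 TPM in the LDL libraries, and 4.81, 3.39 and 3.91 TPM in the Control libraries. The groups overlapped fully, with log2 differences of 0.05 (oxLDL minus Control), 0.14 (LDL minus Control) and -0.09 (oxLDL minus LDL), all at a limma adjusted p of 1 after rounding.

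Lpar3, on chromosome 3 from 146220963 to 146286186, was near the bottom of the measured range. The oxLDL libraries had 0.13, 0.46 and 0.23 TPM, the LDL libraries 0.2, 0.22 and 0.29 TPM, and the Control libraries 0.36, 0.47 and 0.62 TPM. All 3 LDL libraries were below all 3 Control libraries, and oxLDL replicate 2 overlapped with Control. The mean with LDL was 0.237 ± 0.0473 TPM, against 0.483 ± 0.131 TPM in Control (SD, n = 3 each), a 2.04-fold lower level. TPM keeps no depth, so the counting error at such levels is unknown, and the fit with no filter on low genes did not call it (limma adjusted p = 0.808).

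Of the P2Y-type receptors, Lpar4 (chromosome X from 106920625 to 106933900) was the scarcer. It had 1.5, 2.13 and 2.01 TPM in the oxLDL libraries, 1.84, 2.3 and 2 TPM in the LDL libraries, and 1.4, 2 and 2.56 TPM in the Control libraries. The log2 differences were -0.04 for oxLDL against Control and 0.04 for LDL against Control, and replicate 1 was the lowest library of each group.

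Lpar6, the other P2Y-type receptor, was the second most abundant receptor and had one of the narrowest ranges among the 9 genes. It had 6.65, 6.95 and 6.99 TPM in the oxLDL libraries, 6.94, 7.61 and 7.35 TPM in the LDL libraries, and 6.26, 7.08 and 8.67 TPM in the Control libraries. The Control libraries spanned both the lowest and the highest value. The log2 differences were -0.07 for oxLDL against Control (95% CI -0.33 to 0.18), 0 for LDL against Control to 2 decimals (95% CI -0.26 to 0.26) and -0.08 for oxLDL against LDL. Lpar6 lies on chromosome 14 from 73237895 to 73243294, opposite to Rb1, with 408 of its 5400 exon bases shared with exons of that gene. Rb1 had 7.74 to 11.8 TPM, and reads of the shared bases cannot be assigned to a strand in these libraries.

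Together the 5 receptors summed to 56.8 ± 7.29 TPM with oxLDL, 50 ± 4.02 TPM with LDL and 59.6 ± 8.15 TPM in Control (SD, n = 3 each), with overlap. Lpar1 made up most of this sum in every library, from 70.1 to 78.5%. Its share was 73.7, 78.5 and 77.2% in the oxLDL libraries, 70.1, 73.2 and 71.8% in the LDL libraries, and 75.1, 78.3 and 76.7% in the Control libraries. All 3 LDL libraries were below all of the other 6, with a mean of 71.7 ± 1.59% with LDL against 76.7 ± 1.61% in Control (SD, n = 3 each), a difference of -5.01 percentage points.

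The shares of Lpar4 and Lpar6 were the mirror of this. Lpar6 took 12.2 ± 1.29% with oxLDL, 14.6 ± 0.517% with LDL and 12.3 ± 0.471% in Control, and Lpar4 took 3.3 ± 0.326, 4.09 ± 0.182 and 3.28 ± 0.532% in the same groups (SD, n = 3 each). For both genes all 3 LDL libraries lay above the other 6. The Lpar2 share was 7.56 ± 2.03, 9.11 ± 1.2 and 6.93 ± 2.09% in the same groups, with overlap. That of Lpar3 was 0.461 ± 0.23, 0.473 ± 0.086 and 0.801 ± 0.108% (SD, n = 3 each), so it was lower with LDL than in Control. The shares add up to a whole, so a lower share of Lpar1 raises the sum of the others. The levels of Lpar4 and Lpar6 themselves did not separate. No test was made of the shares, which are formed over genes chosen with earlier results known. Lpar5, a receptor outside the set, averaged 0.2 TPM, and with it in the sum the LDL difference was -4.92 percentage points.

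**Figure D3:**
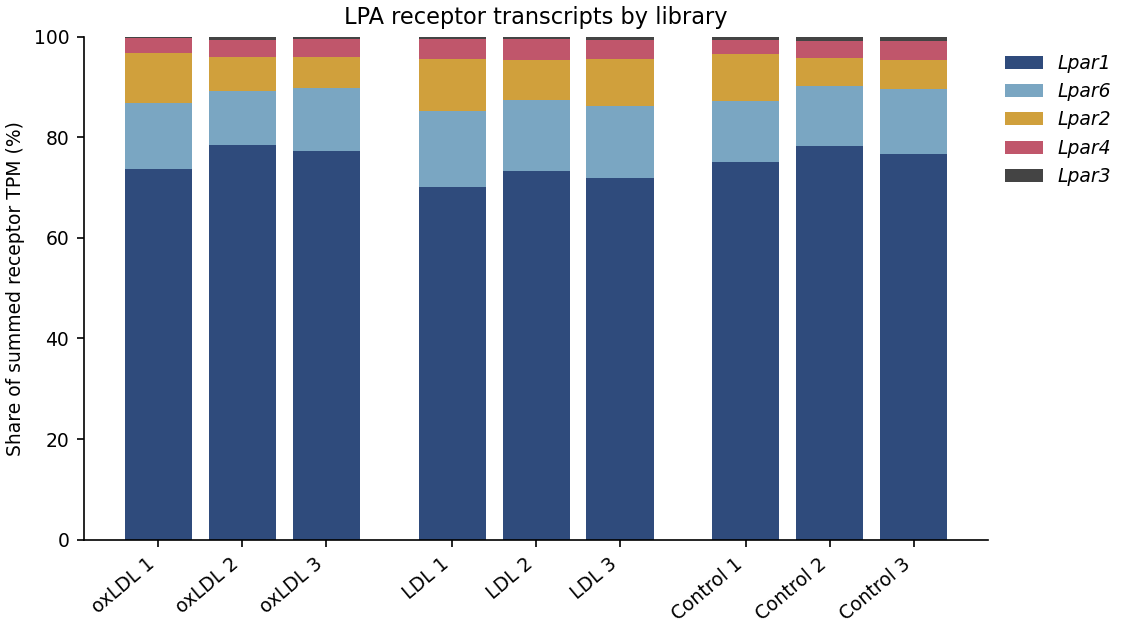
Share (%) of the summed TPM of 5 LPA receptors taken by each receptor, 1 bar for each library, with oxLDL, LDL and Control from left to right. Lpar1 takes 70.1 to 73.2% in the LDL libraries and 73.7 to 78.5% in the other 6.

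The lipid phosphate phosphatases dephosphorylate LPA at the cell surface, and Plpp3 is also known in the vessel wall for protecting the endothelium. Neither passed the test in any comparison. Plpp1 (chromosome 13 from 112800792 to 112867894) had 169, 157.2 and 151.5 TPM in the oxLDL libraries, 172.5, 153.1 and 164.3 TPM in the LDL libraries, and 158.3, 151.4 and 160.2 TPM in the Control libraries. It was the least variable of the 9 genes, its highest library being 1.14 times its lowest. The log2 differences were 0.02 for oxLDL against Control (95% CI -0.13 to 0.18), 0.06 for LDL against Control (95% CI -0.10 to 0.21) and -0.04 for oxLDL against LDL (95% CI -0.19 to 0.12). As a ratio of (TPM + 1), LDL over Control, the interval ran from 0.936 to 1.16. Of its 1750 exon bases, 452 are shared with exons of Mtrex on the opposite strand. Reads of these bases cannot be assigned to a strand in these libraries, and the level of Mtrex is not reported here.

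Plpp3 (chromosome 4 from 105157347 to 105232764) had 141.3, 152.4 and 178.1 TPM in the oxLDL libraries, 145.6, 170.8 and 138.8 TPM in the LDL libraries, and 127, 181 and 119.7 TPM in the Control libraries. Control replicate 2 was the highest of all 9 libraries and Control replicates 1 and 3 the lowest. The log2 differences were 0.16 for oxLDL against Control (95% CI -0.20 to 0.52), 0.11 for LDL against Control (95% CI -0.25 to 0.47) and 0.05 for oxLDL against LDL (95% CI -0.31 to 0.41). The sum of the pair was 316.5 ± 11.4 TPM with oxLDL, 315 ± 10.8 TPM with LDL and 299.2 ± 28.9 TPM in Control (SD, n = 3 each). The summed TPM of the pair was 14.2 to 27.7 times that of Enpp2 across the libraries.

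**Figure D4:**
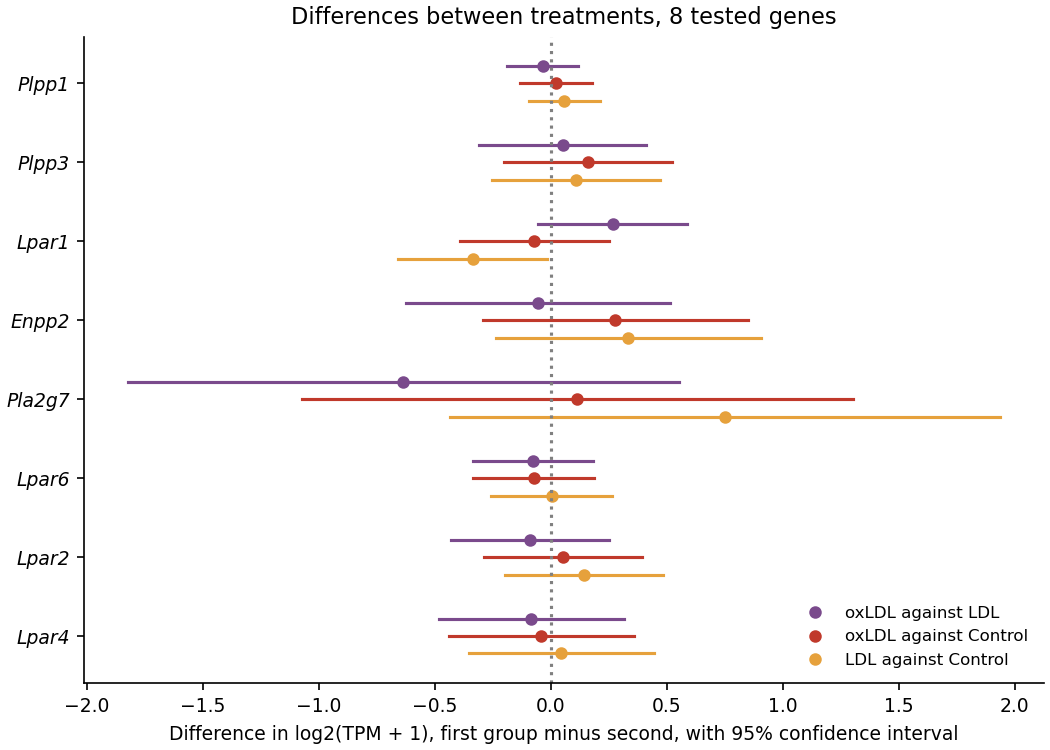
Differences in log2(TPM + 1) with 95% confidence intervals from limma for the 8 tested genes, each comparison given as first group minus second. The interval of Lpar1 for LDL against Control, -0.66 to -0.02, is the only one of the 24, in this fit without the replicate number, that leaves out 0, and those of Pla2g7 are the widest.

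The width of the intervals varied among the genes. Without the replicate number in the fit, the half-width of the 95% interval was 1.19 on the log2 scale for Pla2g7 and 0.57 for Enpp2. It was 0.40 for Lpar4, 0.36 for Plpp3, 0.34 for Lpar2, 0.32 for Lpar1, 0.26 for Lpar6 and 0.15 for Plpp1. The median over the 8 tested members was 0.35 and over all genes 0.28. Blocking on replicate number gave a half-width of 0.57 for Pla2g7, 0.61 for Enpp2, which then had the widest interval, and 0.18 for Lpar1. The block interval for LDL against Control was 0.18 to 1.32 for Pla2g7 and -0.52 to -0.15 for Lpar1, with limma adjusted p = 0.242 and 0.122. For oxLDL against LDL it was -1.20 to -0.07 for Pla2g7 and 0.08 to 0.45 for Lpar1, with limma adjusted p = 0.518 and 0.340. These intervals left out 0, while the adjusted p did not pass.

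Replicate number accounted for more of the spread of 6 of these 9 genes than treatment did. Of the sum of squares of log2(TPM + 1) over the 9 libraries, number took 65.9% for Pla2g7 and treatment 21.4%. For Lpar4 number took 68.4% and treatment 4.22%, for Plpp1 53.7 and 14.2%, and for Lpar6 47 and 10.7%. Lpar1 was divided about evenly, with 44.3% for number and 45.1% for treatment. Lpar3, at its low level, had 23.7% for number and 52.2% for treatment, the highest treatment part of the 9 genes. Enpp2 had 9.71% for number, 19.4% for treatment and 70.9% for neither, the highest part for neither. Medians over all genes tested were 44.2% for number and 16.9% for treatment. Of the 8 tested members 3, 0 and 3 differed in the same direction within all 3 replicate numbers, for LDL over Control, oxLDL over Control and oxLDL over LDL in turn, as did 35.4, 27.1 and 31.5% of all genes. They were Pla2g7, Lpar1 and Plpp1 in the first comparison and Pla2g7, Lpar1 and Lpar6 in the last.

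Among the 36 pairs of these genes, the closest over the 9 libraries were Lpar4 with Lpar6 (r = 0.898) and Lpar1 with Lpar3 (r = 0.82). They had r = 0.908 and 0.89 after group means were removed, when Lpar1 with Lpar4 was the closest pair (r = 0.927, and 0.566 before). Lpar3 had at most 0.62 TPM, with an unknown counting error. Lpar2 with Plpp1 (r = 0.765) and Enpp2 with Plpp3 (r = 0.697) came next. Pla2g7 and Enpp2, which act one after the other on oxidised phospholipid, had r = 0.552. The most opposed were Lpar2 with Plpp3 and Lpar1 with Plpp1, both with r = -0.611. These are descriptions over 9 libraries that share replicate numbers and treatments.

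Among 11568 named protein-coding genes, those most like each member over the 9 libraries were listed by Pearson's r of log2(TPM + 1). Pla2g7 was most like Rac2 (r = 0.985), a small GTPase of blood cells, Arhgap30 (r = 0.974), a GTPase-activating protein, and Ptprc (r = 0.97). Those 3 genes were low, averaging 1.19, 1.01 and 1.84 TPM. Enpp2 was most like Zfp418 (r = 0.959), a zinc finger protein, Ssc5d (r = 0.954), a secreted scavenger receptor, and Pced1b (r = 0.94). Ssc5d averaged 20 TPM and the other two 1.45 and 1.25 TPM.

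Lpar1 was most like Ptrh2 (r = 0.982), a mitochondrial peptidyl-tRNA hydrolase, Ube2c (r = 0.9749), the ubiquitin-conjugating enzyme of mitotic exit, and Iqgap3 (r = 0.971), a scaffold of proliferating cells. Lpar2 was most like Cacnb3 (r = 0.986), a calcium channel subunit, and Sprr1a (r = 0.964), a cornified envelope protein. Lpar4 was nearest to Ubap1 (r = 0.959), Sumo2 (r = 0.957) and Saal1 (r = 0.954), and Lpar6 to Nptn (r = 0.95) and Mtx2 (r = 0.931). Plpp1 was nearest to Bcap29 (r = 0.934), Amigo2 (r = 0.897) and Lrrc3b (r = 0.896), and Plpp3 to Stx18 (r = 0.967), Ttc39b (r = 0.956) and Ifnar2 (r = 0.943). Each was picked as the highest among 11568 genes over 9 libraries, so these values name the nearest genes and carry no test.

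The other genes of the pathway were taken from 7 lists with 78 genes, of which 67 were tested. In limma 0 of the 67 passed in each comparison, and 8 between LDL and Control, 3 between oxLDL and Control and 6 between oxLDL and LDL had an unadjusted p under 0.05, beside 6.65, 3.86 and 3.91% of all genes. The block called 1, 0 and 0 of the 67, and 0.852, 0.126 and 0.259% of all genes. Groups did not overlap for 11, 4 and 9 of the 67 in the same order, and for 10.7, 7.33 and 8.31% of all genes. Their median log2 differences were -0.01, 0.01 and 0.02, against 0 for all genes to 2 decimals in each comparison.

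Among 14 other LPA receptor, phosphatase and phospholipase genes 10 were tested. Plpp2, a phosphatase close to the pair above, averaged 95.7 ± 8.43 TPM with oxLDL, 90.4 ± 6.06 TPM with LDL and 93.1 ± 8.19 TPM in Control (SD, n = 3 each). Gde1, a glycerophosphodiester phosphodiesterase, averaged 61.5 TPM over all libraries and Plpp5 52.8 TPM. Lpar5, Liph, Pla1a and Plpp4 had means under 1 TPM. Liph and Pla1a encode phospholipases that make LPA or lysophosphatidylserine outside the cell.

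The list of the ENPP family besides Enpp2 held 4 genes, Enpp1, Enpp3, Enpp4 and Enpp5, and all 4 were tested. It did not hold Enpp6, which was among the other LPA genes above. Enpp6 averaged 7.77 TPM with oxLDL, 6.66 TPM with LDL and 8.70 TPM in Control. Enpp1, which makes pyrophosphate, an inhibitor of mineralisation, averaged 12.1 ± 2.36 TPM with oxLDL, 17.3 ± 0.649 TPM with LDL and 12.8 ± 2.85 TPM in Control (SD, n = 3 each). Its LDL libraries were above all others, with log2 differences of 0.43 from Control (LDL minus Control, limma adjusted p = 0.631) and -0.49 for oxLDL minus LDL (limma adjusted p = 0.887). Enpp3, an ectonucleotidase named here after its values were seen, had 3.12, 1.57 and 2.45 TPM in the oxLDL libraries, 6.26, 3.79 and 7.32 TPM in the LDL libraries, and 3.21, 1.83 and 2.33 TPM in the Control libraries. It was higher with LDL in each replicate number, with a log2 difference of 0.96 for LDL against Control that passed only with the replicate number as a block (limma adjusted p = 0.0334, as against 0.304 in the fit that left the number out). OxLDL against LDL gave -0.995 for Enpp3 (limma adjusted p = 0.564). Enpp5 averaged 8.59 and Enpp4 5.72 TPM over all libraries. Both had a lower mean with LDL than in Control, 7.84 against 9.17 TPM for Enpp5 and 5.28 against 6.41 TPM for Enpp4.

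Of 9 platelet-activating factor acetylhydrolase, paraoxonase and receptor genes 7 were tested. The intracellular subunits Pafah1b2 and Pafah1b1 averaged 148.9 and 81.8 TPM, and the paraoxonase Pon2 51.7 TPM, with differences from Control of at most 0.10 on the log2 scale in these 3. Of 10 acyltransferase and kinase genes of intracellular LPA 9 were tested. Agpat3, which acylates LPA to phosphatidic acid, averaged 86.9 ± 3.04 TPM with oxLDL, 92.5 ± 6.8 TPM with LDL and 76.6 ± 5.1 TPM in Control (SD, n = 3 each). Both lipoprotein groups were above all Control libraries, with log2 differences of 0.18 for oxLDL (limma adjusted p = 1) and 0.27 for LDL (limma adjusted p = 0.349). Agpat4, of the same family, averaged 66.8 ± 6.28 TPM with oxLDL, 61 ± 3.85 TPM with LDL and 53.2 ± 5.22 TPM in Control (SD, n = 3 each). Its oxLDL libraries were above all Control libraries, with a log2 difference of 0.32 (limma adjusted p = 0.92), the highest of the 67 genes in that comparison. Agpat1 averaged 72.9 TPM.

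All 14 genes of G proteins and the exchange factors and kinases downstream of them were tested, and their groups did not separate for any of them in any comparison. Gnas (Gs), Gnai2 (Gi) and Rhoa averaged 1101, 594.9 and 499.9 TPM. The 15 genes of the YAP and SRF pathway, a list that holds targets and also the factors and coactivators themselves (Yap1, Wwtr1, Tead1, Srf, Mkl1 and Mkl2), were all tested, with median log2 differences of -0.11 (LDL minus Control), 0.02 (oxLDL minus Control) and 0.11 (oxLDL minus LDL). Ctgf (CCN2), a matricellular protein, averaged 1369 ± 138 TPM with oxLDL, 1144 ± 201 TPM with LDL and 1405 ± 261 TPM in Control. Cyr61 (CCN1), of the same family, averaged 1029 ± 97.9 TPM with oxLDL, 805.5 ± 92.7 TPM with LDL and 998.6 ± 17.9 TPM in Control, with LDL below both of the other groups in all 3 libraries. Ankrd1, an ankyrin repeat protein, averaged 746 ± 69.7 TPM with oxLDL, 559.2 ± 31.7 TPM with LDL and 608.7 ± 66.8 TPM in Control (SD, n = 3 each throughout). The adjusted p of these 3 genes in limma lay between 0.411 and 1. Amotl2, an angiomotin that binds YAP, named after its values were seen, averaged 139.4 ± 17.1 TPM with oxLDL, 100.4 ± 6.38 TPM with LDL and 135.1 ± 13.5 TPM in Control (SD, n = 3 each), with LDL below all 6 other libraries and a limma adjusted p = 0.243 for LDL against Control.

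The sister pathway of sphingosine 1-phosphate had 8 of its 12 genes tested. Its receptor S1pr1, known from endothelium, averaged 50.1 TPM over all libraries. S1pr1 was highest in replicate 1 of each group, as was the sum of endothelial markers, and their part in its values was not tested. Sgpp1, a phosphatase of sphingosine 1-phosphate, averaged 90.2 ± 10.3 TPM with oxLDL, 110.6 ± 5.84 TPM with LDL and 91.2 ± 10.5 TPM in Control (SD, n = 3 each), with LDL above both of the other groups (limma adjusted p = 0.61 against Control). Sgpl1, the lyase, averaged 60.8 TPM.

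**Figure D5:**
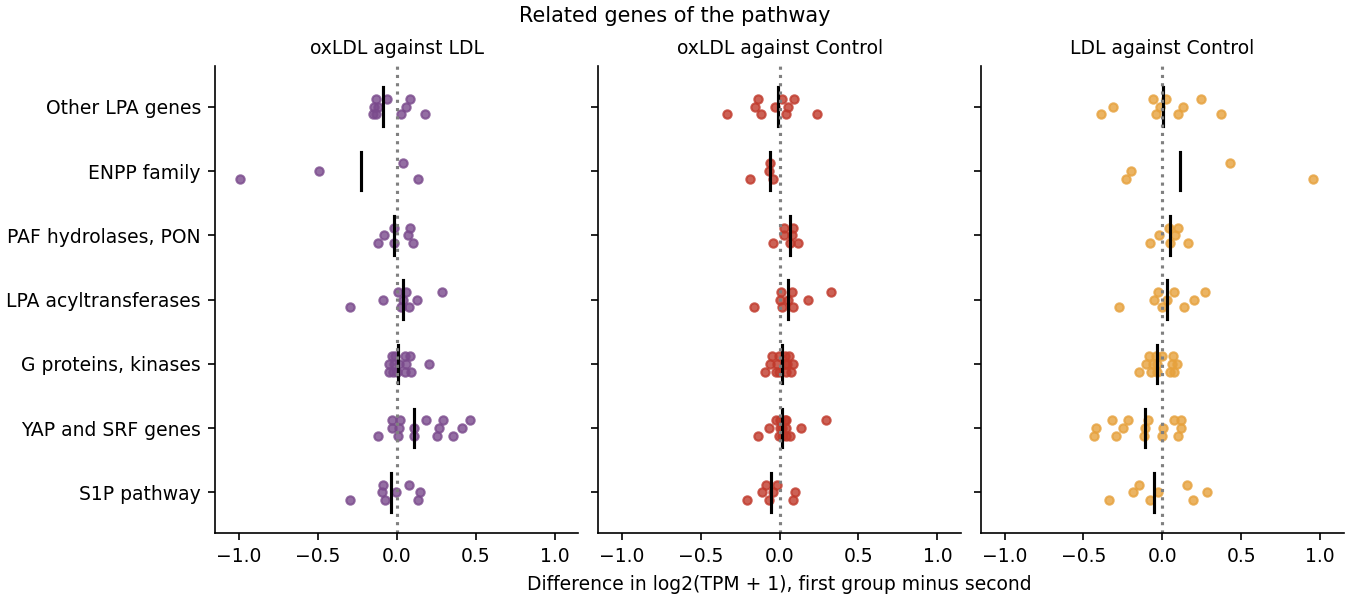
Differences in log2(TPM + 1) of the tested genes of 7 related lists, first group minus second, 1 point for each gene and a bar at each list's median. The list of the ENPP family holds the widest differences, those of Enpp3 at 0.96 (LDL minus Control) and -0.995 (oxLDL minus LDL).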

How the data were processed

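RNA from 9 VIC samples (50 ng each) was amplified as cDNA, built into TruSeq v2 libraries, which keep no strand, and sequenced as 100 bp pairs, per the labels' protocols. The authors deposited TPM for 51810 genes. Per the submitters' processing notes, the tools were RSEM 1.3.1 and STAR (no version), with build mm10. Their annotation was not given in the sources used here. TPM keep no depth, so the depth of each library is unknown, and neither intervals for counting error nor floors could be set.

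Tests used log2(TPM + 1) and the 13495 genes that averaged 1 TPM or more over the 9 libraries. Limma 3.58.1 in R 4.3.3 (trend, all 9 libraries, 6 residual degrees of freedom, two-sided) was used with Benjamini-Hochberg adjustment over those genes and a threshold of 0.05. Every adjusted p and interval is from this fit unless named otherwise. It was tested on simulated data. These held no effect of replicate number, and the changes put into them were larger than any difference of a member here. That test therefore does not speak for paired libraries or for differences as small as those of the members. The fit understates changes of low genes. No exact test was run, since 3 against 3 libraries cannot go below p = 0.1.

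The members and lists were chosen with earlier results of these data known. Every member was named, and of each related list any called gene or else the 3 with the highest mean, except as said. Genes most like a member were the 3 named protein-coding genes with the highest r. For Lpar2 and Lpar6 1 of these each is not reported here.

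The titles give the replicate numbers. Deviations from group means correlated at 0.172 to 0.497 in the 9 same-numbered pairs of libraries and at -0.309 to 0.13 in the 18 others, so the numbers pair the samples. The labels do not say what a shared number stands for. Alternatives were other pseudocounts (0.1 and 5), other filters, 2 scalings, the replicate number as a block, the 6 compared libraries alone, and each library left out. Gene positions were read from GENCODE M21 (GRCm38), where 47624 of 51810 symbols matched, and promoter sequences from RefSeq.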

Additional observations from a re-analysis of the deposited data

How the results depend on the processing

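No member passed in limma under any of the 17 alternatives in any comparison (0 calls each). The lowest adjusted p among them were 0.122 for Lpar1 and 0.242 for Pla2g7, both for LDL against Control with the replicate block, which changed no call of a member. Of the related genes the replicate block called 1 (Enpp3) for LDL against Control. A minimum mean of 5 TPM left Lpar2 and Lpar4 untested. No member's difference changed sign with another pseudocount, filter, scaling, the block or the 6 libraries alone. With 1 library left out, small differences did. For LDL against Control the ranges were Lpar4 -0.10 to 0.18, Lpar6 -0.092 to 0.12 and Plpp3 -0.0046 to 0.29. For oxLDL against Control they were Pla2g7 -0.41 to 0.67, Lpar1 -0.19 to 0.036, Lpar2 -0.049 to 0.18, Lpar4 -0.19 to 0.095, Lpar6 -0.17 to 0.038 and Plpp1 -0.021 to 0.057, with the Lpar1 share running from -1.25 to 1.18 percentage points. For oxLDL against LDL they were Enpp2 -0.32 to 0.12, Lpar2 -0.19 to 0.034, Lpar4 -0.15 to 0.014, Plpp1 -0.081 to 0.0043 and Plpp3 -0.042 to 0.14. The cause was not tested. Over all genes, the counts called (45, 2 and 14 in that order of comparisons) were 115, 17 and 35 with the replicate block, 19, 10 and 8 with no filter, and 9, 1 and 6 with the compared libraries alone. With a pseudocount of 5 the oxLDL against Control count was 1. With 1 library left out they ran from 4 to 37, 1 to 3 and 1 to 10. The number of libraries, the unknown depth and the lack of strand limit what these values can show, most of all for Lpar3 and Lpar4.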
